A study of Mus musculus with 6 samples.

Results

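Oxidative phosphorylation genes were examined in long-term haematopoietic stem cells (LT-HSCs) of mice with and without Dcaf8, a gene for an adaptor that brings substrates to CUL4-based ubiquitin ligases. The members were the protein-coding genes whose symbols begin with Nduf followed by a, b, c, s or v, with Uqcr, with Cox4 to Cox8 or with Atp5, the genes Sdha, Sdhb, Sdhc and Sdhd, and the mitochondrially encoded Nd, Co, Cyt and Atp genes, where at least 10 counts were found in 3 or more of the 6 libraries. Of 126 matching names among 55357 gene identifiers (21137 with at least 1 count), 110 were protein-coding and 102 reached that minimum, 90 of them nuclear and 12 mitochondrially encoded. Bone marrow cells of young mice were sorted by the surface phenotype Lin-Sca-1+c-Kit+CD150+CD48-, and 50 cells per library were amplified. There were 3 wild-type libraries (WT) and 3 Dcaf8 knockout libraries (KO), 1 per mouse. The design text gives no exact age and no treatment, and the labels name neither the knockout allele nor a Cre driver. The study asked how loss of Dcaf8 affects the function of stem cells.

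Oxidative phosphorylation passes electrons from NADH and succinate along complexes I to IV of the inner mitochondrial membrane to oxygen, and complex V makes ATP from the proton gradient that complexes I, III and IV build. Complex II is nuclear-encoded throughout, whereas the others join nuclear subunits with subunits encoded by mitochondrial DNA. Quiescent LT-HSCs are known for a strong reliance on glycolysis and raise mitochondrial respiration when they are activated and differentiate. Of the nuclear members, 46 belonged to complex I (7 core subunits, 31 accessory subunits and 8 assembly factors), 4 to complex II, 8 to complex III, 14 to complex IV (with Ndufa4, now counted there) and 18 to complex V. The accessory subunits of complex I include Ndufb4c, a processed pseudogene in GENCODE and a coding gene in RefSeq, with 19 to 80 counts per library. The mitochondrial genome supplied 6 members of complex I, 1 of complex III, 3 of complex IV and 2 of complex V.

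Part of the mitochondrial genome also exists as near-identical copies in the nuclear genome, and 2 pairs of transcript starts show how little separates them. In GENCODE transcripts of GRCm38, mt-Co3, a core subunit of complex IV, matched the chromosome 1 gene Gm28437 over all 783 bases compared. The complex I subunit gene mt-Nd3 matched Gm28438 over 345 bases with 1 substitution, T3C, counted from 1 at the first base of the transcript with the mitochondrial base first. The first 40 bases of each follow, 5′ to 3′, with the differing base of the second pair in capitals.
mt-Co3: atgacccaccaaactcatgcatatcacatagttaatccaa
Gm28437: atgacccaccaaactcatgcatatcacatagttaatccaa
mt-Nd3: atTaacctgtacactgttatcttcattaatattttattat
Gm28438: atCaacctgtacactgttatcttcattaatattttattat
A read from an identical stretch carries no base that assigns it to 1 of the 2 genes. The counts of mt-Co2, mt-Atp6, mt-Co3 and mt-Nd3 are therefore uncertain wherever they appear. Those of mt-Co1 and mt-Nd4 are uncertain in part, since 51.1% and 62.2% of their 50-base transcript windows matched transcripts of other genes.

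Promoters of the nuclear members were the other sequences examined, because nuclear respiratory factor 1 (NRF1), GABPA and YY1 are known regulators of respiratory genes. RefSeq windows (GRCm38.p6) of 300 bases, from 250 before to 50 after the start, were matched for 74 of the 90 nuclear members and searched on both strands. A gene counted as matched where any of its annotated starts matched, so genes with more starts had more chances. The palindrome CGCATGCG, the centre of the NRF1 binding motif, was found in 11 of the 74 (14.9%) and in 2.77% of 17492 coding genes. In 7 member promoters it stood, with its flanks, wholly upstream of the start, and these are shown with the palindrome in capitals, on the strand of the gene.
Ndufa11 (chr17:56717692-56717721, plus strand): cctgcactgcgCGCATGCGcgcacgccttg
Ndufaf4 (chr4:24897960-24897989, plus strand): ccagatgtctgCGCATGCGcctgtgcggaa
Cox6a1 (chr5:115349101-115349130, minus strand): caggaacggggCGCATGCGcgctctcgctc
Atp5g2 (chr15:102671070-102671099, minus strand): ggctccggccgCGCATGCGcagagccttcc
Atp5l (chr9:44920965-44920992, minus strand): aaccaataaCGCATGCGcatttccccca
Atp5k (chr5:108434430-108434459, minus strand): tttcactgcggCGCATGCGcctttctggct
Atp5j (chr16:84835105-84835134, minus strand): aggccagaataCGCATGCGtacagtgcagt
Measured from its first base, the palindrome began 59, 112, 161, 41, 241, 49 and 147 bases before the start of Ndufa11, Ndufaf4, Cox6a1, Atp5g2, Atp5l, Atp5k and Atp5j. The other 4 were Ndufa8 and Uqcr11, where it began 9 and 5 bases before the start, and Ndufaf5 and Uqcrc1, where it began 17 and 31 bases after it. It was present in 4 of the 40 genes of complex I, 0 of 3 of complex II, 2 of 5 of complex III, 1 of 11 of complex IV and 4 of 15 of complex V.

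Other motifs were searched in the same windows. The YY1 letters AAGATGGC were present in 14.9% of members and 3.57% of all coding genes. Of the 11 member matches 8 were in complex I, which supplied 40 of the 74 genes. The ETS-type letters CCGGAAG, which GABPA can bind, were present in 25.7% against 12.9%. The SP1 letters GGGCGG were about as frequent in members as elsewhere (45.9% against 49.2%), and TATAAA was present in 8.11% against 14.8%. These are shares of genes with matching letters, and no binding was measured.

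The libraries held 14461864 to 22386387 counts. Nuclear members took 1.41 to 1.73% of the counts of a library and mitochondrially encoded members 0.397 to 0.473%. The uncertain genes mt-Co2, mt-Atp6, mt-Co3 and mt-Nd3 add little to the mitochondrially encoded share. However, mt-Co1 and mt-Nd4, uncertain in part, belong to that share. All 10 LT-HSC marker genes fixed for the cell type, among them Slamf1, Procr and Hlf, were detected. Cd48, used to gate cells out, stood at 0.051 to 34.7 CPM (a gene's counts scaled to a common library size, here with TMM factors). The fixed list of 3 genes named as lacking in LT-HSCs (Cd48, Flt3 and Cd34) summed to 352 to 422 CPM in WT and 342 to 515 CPM in KO. Dcaf8 was lower in each knockout library (74.3, 38.1 and 45.2 CPM) than in any wild-type library (291, 293 and 204 CPM). Its log2 fold change was -2.28 (SE 0.28, edgeR adjusted p = 0.739). WT replicate 2 stood apart in neutrophil granule genes, whose list of 11 summed to 6451 CPM there and to 124 to 291 CPM elsewhere (Ngp alone stood at 2409 CPM, and at most 9.69 CPM elsewhere). A list of 20 G2/M genes summed to 3013, 779 and 678 CPM in WT and 1584, 2840 and 1932 CPM in KO, and its part in the values below was not tested. KO replicate 3 stood apart in sex-linked genes, with Xist at 50.8 CPM and Eif2s3y at 0.181 CPM, against at most 1.25 and at least 165 CPM in the others. No member reached an unadjusted p under 0.05 with either of these libraries left out, as with all 6.

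No oxidative phosphorylation gene passed the test for a difference between genotypes. Among the 101 members that could be tested, 0 passed an adjusted p of 0.05 with edgeR, as did 0 of 14592 genes (0%). Dcaf8 itself, with the smallest p of all genes, did not pass (edgeR adjusted p = 0.739). The lack of calls therefore does not show that members were unchanged. At an unadjusted p under 0.05 there were also 0 members, against 849 genes (5.82%). The smallest unadjusted member p was 0.0590, for Ndufa10. DESeq2 called 153 genes (0.902%), Dcaf8 among them, and 0 members. It placed 3 members at an unadjusted p under 0.05, which were Ndufv3, Ndufa10 and Atp5g3. mt-Atp8, with counts too low for the filter, was the only member not tested.

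Fold changes of the members lay close to 0. The median log2 fold change, knockout minus wild-type, was 0.02 over the members and 0.01 over all genes, and 54 of 101 members lay above 0 against 50.9% of genes. The absolute log2 fold change was within 0.25 for 89 of 101 members and for 6275 of 14592 genes. It exceeded 1 in 0 members and in 14.3% of genes. Of the 5330 genes with a mean of at least 50 CPM, 3453 lay within 0.25 and 57 exceeded 1. The 95% interval lay within -1 to 1 for 90 members and within -0.5 to 0.5 for 33. Smaller shifts could therefore not be detected in most members at this number of mice.

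**Figure D1:**
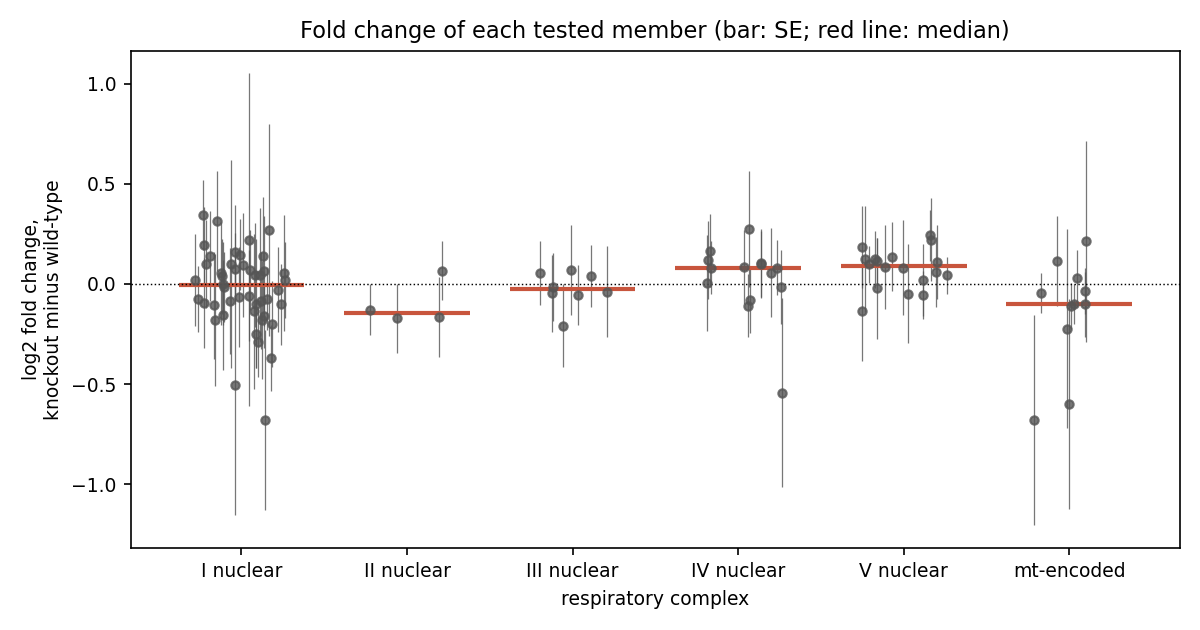
Log2 fold change (knockout minus wild-type, edgeR) of each of the 101 tested members by complex, with its SE as a grey bar and the group median as a red line. The medians run from -0.15 (complex II) to 0.09 (complex V), and no member lies beyond 1 in either direction.

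The spread between mice of one genotype was not compared by a test. The median within-group SD of log2 levels was 0.23 for members, 0.54 for all tested genes and 0.30 for the 5330 genes with a mean of at least 50 CPM, a group that includes most members and is not matched to them in level. By complex, the nuclear members of complex V had the lowest median SD (0.18) and those of complex I the highest (0.29), with 0.48 among its assembly factors. Ndufaf1, a complex I assembly factor singled out after its values were seen, stood at 51.5, 84.5 and 0 CPM in WT and 27.4, 74.4 and 63.2 CPM in KO. Its WT replicate 3 library held 0 counts, where the other libraries held 626 to 1744.

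Complex I, which oxidises NADH, had as many nuclear members above 0 as below, 23 of 46 each, with a median log2 fold change of -0.01. Its summed nuclear level was 4488, 5757 and 5850 CPM in WT and 4586, 5762 and 5504 CPM in KO, so the genotypes overlapped. The core subunits had a median of -0.07 and the accessory subunits 0.02. Per kilobase of merged exons the highest nuclear complex I genes were the accessory subunits Ndufa7 (280 CPM per kb) and Ndufb10 (257 CPM per kb), and the lowest nuclear one was Ndufb2 (4.45 CPM per kb). The annotated length enters this rank, with 4375 bases for Ndufb2, 528 for Ndufa7 and 732 for Ndufb10.

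In 3 complex I genes the genotypes did not overlap, as in 10.3% of all tested genes. Ndufv3, an accessory subunit of the NADH-binding arm, stood at 89.5, 89.0 and 97.9 CPM in WT and 119, 119 and 114 CPM in KO. The log2 fold change was 0.35 (SE 0.17, edgeR adjusted p = 0.874), and it ranged from 0.32 to 0.39 with single libraries left out. Every knockout library lay above every wild-type library, with the 3 knockout values close together. Ndufa10, an accessory subunit of the membrane arm, stood at 237, 257 and 245 CPM in WT and 153, 209 and 213 CPM in KO. Its log2 fold change was -0.37 (SE 0.17, edgeR adjusted p = 0.866), and -0.23 without KO replicate 1, its lowest library. Ndufs3, a core subunit, stood at 138, 150 and 175 CPM in WT and 122, 136 and 133 CPM in KO (log2 fold change -0.25, and -0.15 without WT replicate 3). The gap between its genotypes was narrow, and 39.7% of its transcript windows were shared with other genes' transcripts, mainly the pseudogene Gm12251.

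The remaining complex I genes with the smallest p overlapped between genotypes. Ndufa9, an accessory subunit, stood at 223, 274 and 293 CPM in WT and 180, 235 and 234 CPM in KO, a log2 fold change of -0.29. The assembly factor Ndufaf6 stood at 22.6, 70.7 and 64.3 CPM in WT and 26.4, 33.8 and 39.9 CPM in KO. WT replicate 1 lay apart from the other wild-type libraries. The Ndufaf6 log2 fold change was -0.68 with all libraries and -1.02 without that one, and -0.41 without WT replicate 2.

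Complex II, succinate dehydrogenase, had 1 of 4 members above 0 and a median log2 fold change of -0.15. The summed level was 1221, 1515 and 1623 CPM in WT and 1300, 1440 and 1316 CPM in KO. Sdha, the flavoprotein that oxidises succinate, stood at 540, 570 and 644 CPM in WT and 560, 581 and 467 CPM in KO (log2 fold change -0.13). The iron-sulphur subunit Sdhb had a log2 fold change of -0.17, and the membrane anchors Sdhd and Sdhc -0.17 and 0.07. All 4 genes overlapped between genotypes. The complex II median was -0.25 without WT replicate 1 and -0.04 without WT replicate 3.

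Complex III, which passes electrons from ubiquinol to cytochrome c, had 3 of 8 nuclear members above 0 and a median of -0.03. Its summed nuclear level was 1504, 1909 and 2082 CPM in WT and 1648, 1936 and 1873 CPM in KO. Uqcrc1, a core protein of the matrix side, stood at 435, 546 and 644 CPM in WT and 460, 578 and 573 CPM in KO, with a log2 fold change of -0.02. Uqcrq, the gene of this complex with the smallest p, had a log2 fold change of -0.21. Uqcrc2 and Uqcr10 lay at 0.06 and 0.07 and Uqcrb, the highest nuclear gene of the complex per kilobase (434 CPM per kb), at -0.06. No complex III gene separated the genotypes.

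**Figure D2:**
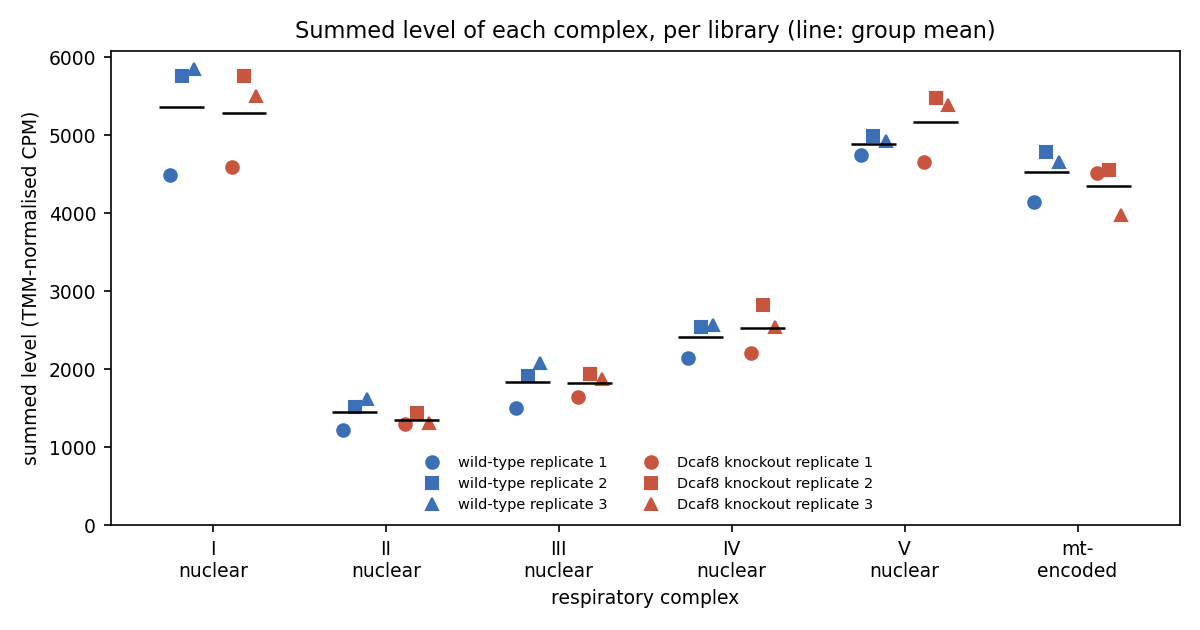
Summed level (TMM-normalised CPM) of the nuclear members of each complex and of the mitochondrially encoded members, with 1 point per library and a line at each group mean. The genotypes overlap in every column, and the replicate 1 libraries (circles) lie lowest of their genotype in each nuclear column.

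Complex IV, cytochrome c oxidase, had 10 of 14 nuclear members above 0 and a median of 0.08. Its summed nuclear level was 2146, 2539 and 2564 CPM in WT and 2215, 2829 and 2547 CPM in KO. The median was -0.01 without WT replicate 1 and -0.02 without KO replicate 2. Cox4i1, the widely expressed form of subunit 4 and the highest nuclear gene of the complex per kilobase (476 CPM per kb), stood at 326, 372 and 360 CPM in WT and 326, 425 and 374 CPM in KO. Of the 14 genes, 13 overlapped between genotypes, Cox4i1 among them. Cox6a1 had a log2 fold change of 0.17, Cox6b2 of 0.28 and Cox7a2l, a factor of respiratory supercomplexes, of -0.11.

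Several complex IV subunits, and some subunits of other complexes, exist as alternative isoforms in different tissues, and the libraries held mostly the widely expressed ones. Cox6a2, Cox7b2, Cox8b and Cox8c were at 0 counts in all 6 libraries, which allows up to 3 counts in each for counting error alone. Cox7a1, the heart and muscle form of subunit 7a, held 19 counts in KO replicate 3 and 0 elsewhere, and Ndufa4l2 held 0 to 8 counts. Cox6b2, known as the testis form of subunit 6b, made up 21.5, 16.6 and 14.3% of the Cox6b counts in WT and 21.8, 20.7 and 15.6% in KO. Cox6b2 was thus a regular part of the Cox6b counts in both genotypes, with 715 to 1196 counts per library.

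Cox4i2, an isoform of subunit 4 known as hypoxia-inducible, was low but regular. It stood at 8.44, 8.58 and 8.88 CPM in WT and 5.26, 7.17 and 5.79 CPM in KO, with a log2 fold change of -0.54 (SE 0.47, edgeR adjusted p = 0.963). As a share of the counts of both Cox4i genes it was 2.53, 2.26 and 2.41% in WT and 1.59, 1.66 and 1.52% in KO, or 2.40% ± 0.136 (SD, n = 3) and 1.59% ± 0.067 (SD, n = 3). Neither the level nor the share overlapped between genotypes. The share rests on 103 to 177 Cox4i2 counts per library, and it was singled out after its values were seen, so it is given without a test.

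Complex V, the ATP synthase, had 14 of 18 nuclear members above 0 and a median log2 fold change of 0.09. Its summed level was 4748, 4987 and 4927 CPM in WT and 4652, 5476 and 5382 CPM in KO. The 5 subunits of the catalytic F1 part and the 5 small membrane subunits all lay above 0, with medians of 0.08 and 0.13. With 1 library left out, 5 of these 10 turned below 0: Atp5e to -0.11, Atp5d to -0.12, Atp5a1 to -0.0066, Atp5k to -0.0039 and Atp5j2 to -0.08. Atp5l, a small membrane subunit, shared 84.8% of its transcript windows with other genes' transcripts, so its counts are uncertain in part. The 4 peripheral stalk subunits had a median of 0.02. None of these shifts passed the test, and the complex V sums of the genotypes overlapped, since KO replicate 1 lay below every wild-type library. The complex V median stayed between 0.05 and 0.17 with single libraries left out.

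Atp5b, the catalytic beta subunit, was the highest nuclear member of complex V per kilobase (640 CPM per kb). It stood at 1202, 1162 and 1189 CPM in WT and 1137, 1340 and 1329 CPM in KO, a log2 fold change of 0.10. Atp5c1, the rotating gamma subunit, had a log2 fold change of 0.12. Atp5g3, a gene of the membrane ring subunit c, stood at 235, 249 and 254 CPM in WT and 268, 290 and 316 CPM in KO. All 3 knockout values of Atp5g3 lay above the wild-type values (log2 fold change 0.24, SE 0.13, edgeR adjusted p = 0.881).

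Subunit c has 3 genes that encode the same mature protein. Of their counts, Atp5g3 took 49.1% ± 2.07 in WT and 52.0% ± 1.01 in KO, Atp5g1 32.0% ± 7.22 and 28.5% ± 1.85, and Atp5g2 18.9% ± 5.19 and 19.5% ± 1.10 (SD, n = 3). The Atp5g1 share was 23.7% in WT replicate 1 and 35.7 and 36.6% in the other wild-type libraries. The differences between genotypes were within the wild-type range for Atp5g1 and Atp5g2. For Atp5g3, KO replicate 3 (51.2%) lay below WT replicate 1 (51.5%), so the shares overlapped.

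Over the 5 genes named above whose genotypes did not overlap, 2 were higher in knockout (Ndufv3, Atp5g3) and 3 lower (Ndufa10, Ndufs3, Cox4i2). Together they are 4.95% of the 101 members, against 10.3% of all tested genes. By direction, 2 of 101 members were higher against 5.91% of genes, and 3 of 101 lower against 4.43%.

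**Figure D3:**
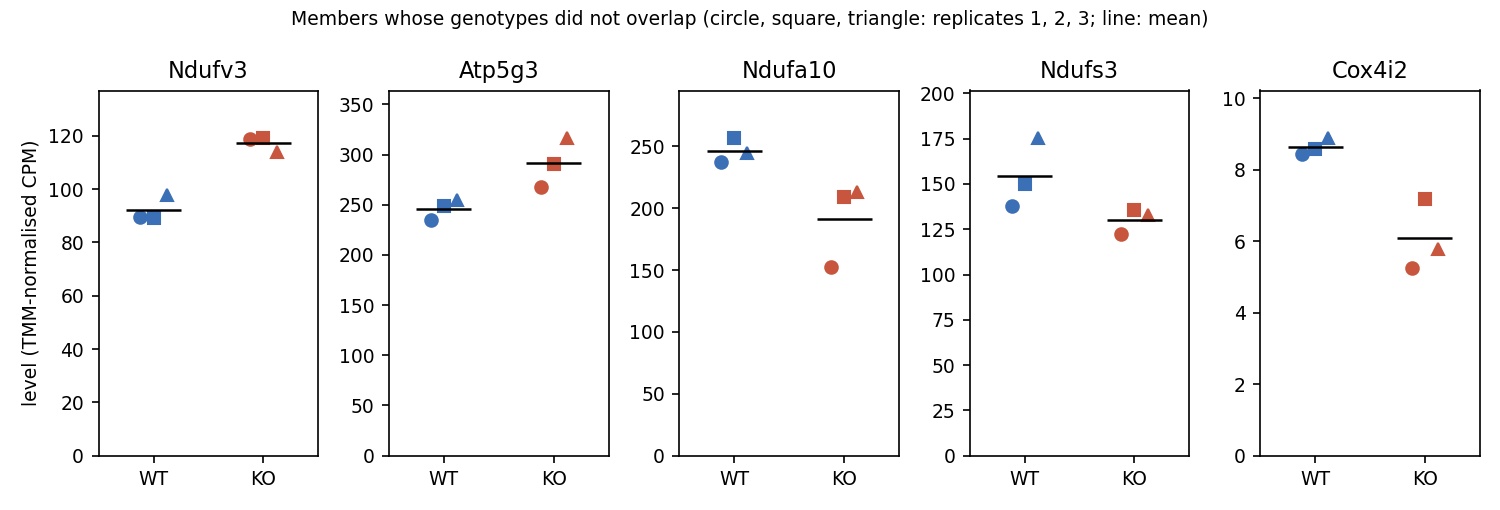
Level (TMM-normalised CPM, axis from 0) of the 5 members whose 3 knockout libraries all lie on one side of the 3 wild-type libraries, with circles, squares and triangles for replicates 1, 2 and 3 and a line at each mean. Ndufv3 and Atp5g3 lie higher in knockout, and Ndufa10, Ndufs3 and Cox4i2 lower.

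The mitochondrially encoded members summed to 4142, 4784 and 4662 CPM in WT and 4511, 4547 and 3977 CPM in KO. Their median log2 fold change was -0.10, with 3 of 11 above 0. These 11 include mt-Co2, mt-Atp6, mt-Co3 and mt-Nd3, whose counts are uncertain. The other 7 had a median of -0.05, with 2 above 0. Those 7 alone summed to 3966 to 4767 CPM per library. The sums, and the ratio that follows, therefore hold little of mt-Co2, mt-Atp6, mt-Co3 and mt-Nd3. They do hold mt-Co1 and mt-Nd4, which share 51.1% and 62.2% of their transcript windows with other genes and are uncertain in part. As a percentage of the nuclear sum the mitochondrially encoded members were 29.4, 28.6 and 27.3% in WT and 31.3, 26.1 and 23.9% in KO. The knockout values of this ratio spanned the wild-type range on both sides.

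Levels along the mitochondrial genome fell into 2 separate ranges. The 6 adjacent genes from mt-Co2 to mt-Nd4l (mt-Co2, mt-Atp8, mt-Atp6, mt-Co3, mt-Nd3 and mt-Nd4l) had mean levels of 0.986 to 7.49 CPM per kb. The other 7 genes, on either side, had 228 to 1063 CPM per kb. mt-Co1, the catalytic subunit of complex IV, stood at 884 CPM per kb, next to mt-Co2, a subunit of the same complex, at 5.79. mt-Nd4l, at 4 to 9 counts per library, did not reach the member minimum.

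Sequence shared with other genes covered most of the low stretch. Of the 50-base windows of their transcripts, mt-Co2, mt-Atp6, mt-Co3, mt-Nd3 and mt-Nd4l shared 98.0 to 100% with transcripts of other genes. mt-Atp8 shared 0%, although it lies between mt-Co2 and mt-Atp6 and was as low (1.85 CPM per kb). Only annotated transcripts were searched, so a copy of mt-Atp8 in other nuclear sequence would not have been seen. mt-Nd4 and mt-Co1 shared 62.2% and 51.1%, and mt-Nd1, mt-Nd6 and mt-Cytb 0%. The copies held counts of their own: Gm28437 held 2169 in all libraries together, against 342 for mt-Co3, and Gm10925 held 1469 against 549 for mt-Atp6. Whether the sharing, or reads placed at several positions, sets the low counts was not tested.

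**Figure D4:**
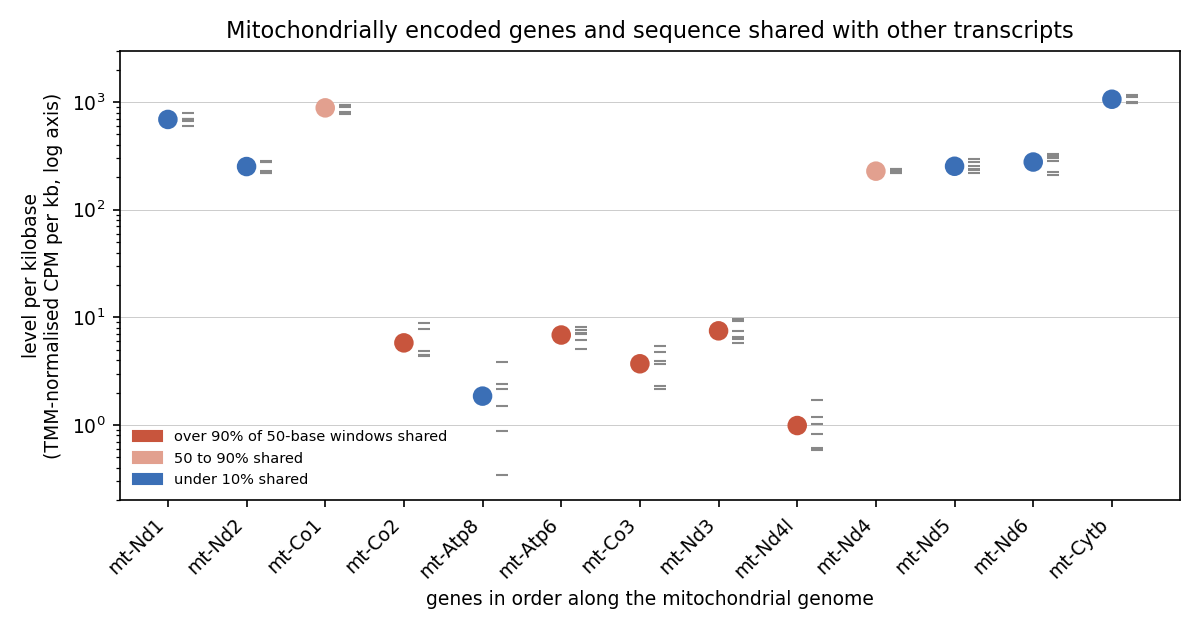
Level per kilobase of transcript (TMM-normalised CPM per kb, log axis) of the 13 mitochondrially encoded protein genes in genome order. Large points are means over the 6 libraries, grey dashes the single libraries, and colour gives the share of 50-base windows also found in other genes' transcripts; the 6 genes from mt-Co2 to mt-Nd4l lie between 0.986 and 7.49.

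Outside the low stretch, the mitochondrially encoded genes gave narrower intervals, and none passed the test. mt-Cytb, the cytochrome b of complex III, stood at 1146, 1290 and 1337 CPM in WT and 1128, 1275 and 1119 CPM in KO, a log2 fold change of -0.10 (SE 0.10). mt-Co1 stood at 1261, 1451 and 1448 CPM in WT and 1399, 1423 and 1210 CPM in KO, a log2 fold change of -0.05 (SE 0.10). For both genes the genotypes overlapped, and the 95% intervals were -0.33 to 0.13 and -0.28 to 0.19. The mt-Co1 interval does not cover the uncertainty from its shared sequence. The complex I subunits mt-Nd1, mt-Nd2, mt-Nd4, mt-Nd5 and mt-Nd6 had log2 fold changes from -0.11 to 0.12. Inside the stretch, mt-Co2 and mt-Co3 had log2 fold changes of -0.60 and -0.68, each with an SE of 0.53, mt-Atp6 -0.22 and mt-Nd3 0.21. The larger values there rest on 1.67 to 6.02 CPM for mt-Co2 and mt-Co3.

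Nuclear members moved together between libraries of both genotypes. The replicate 1 library was the lowest of its genotype in the nuclear sum, with 14106 CPM in WT against 16706 and 17047, and 14401 CPM in KO against 17442 and 16623. WT replicate 1 was the lowest of the 6 libraries for 51 of 90 nuclear members and KO replicate 1 for 21, together 80.0% of them, against 40.3% of the genes of at least 50 CPM that have a transcript length. Both replicate 1 libraries lay below the gene's mean over the 6 libraries for 73.3% of nuclear members, against 30.1% of such genes. That group is not matched to the members in length. The mitochondrially encoded members were not low in KO replicate 1, where the median log2 deviation from the gene's mean was 0.15, with -0.07 in WT replicate 1. The labels name no batch, and the replicate number is only a number in them.

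Transcript length moved with this pattern. Nuclear members had a median transcript length of 936.5 bases, against 2713 bases for genes of at least 50 CPM, and 53.4% of them against 6.51% were under 1 kb. Among genes under 1 kb that are no members, the median log2 deviation was -0.18 in WT replicate 1 and -0.07 in KO replicate 1. Among those of 4 kb and over it was 0.13 and 0.03. Members under 1 kb lay lower than other genes of that length, at -0.28 and -0.16. For 37 of 47 members under 1 kb both replicate 1 libraries lay below the gene's mean. The same held for 156 of the 292 genes under 1 kb that are no members. The part of length in the low member levels of these libraries was not tested. Without both replicate 1 libraries, an alternative chosen after seeing the data, the median log2 fold change of all members was -0.01 and 0 members passed an adjusted p of 0.05.

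**Figure D5:**
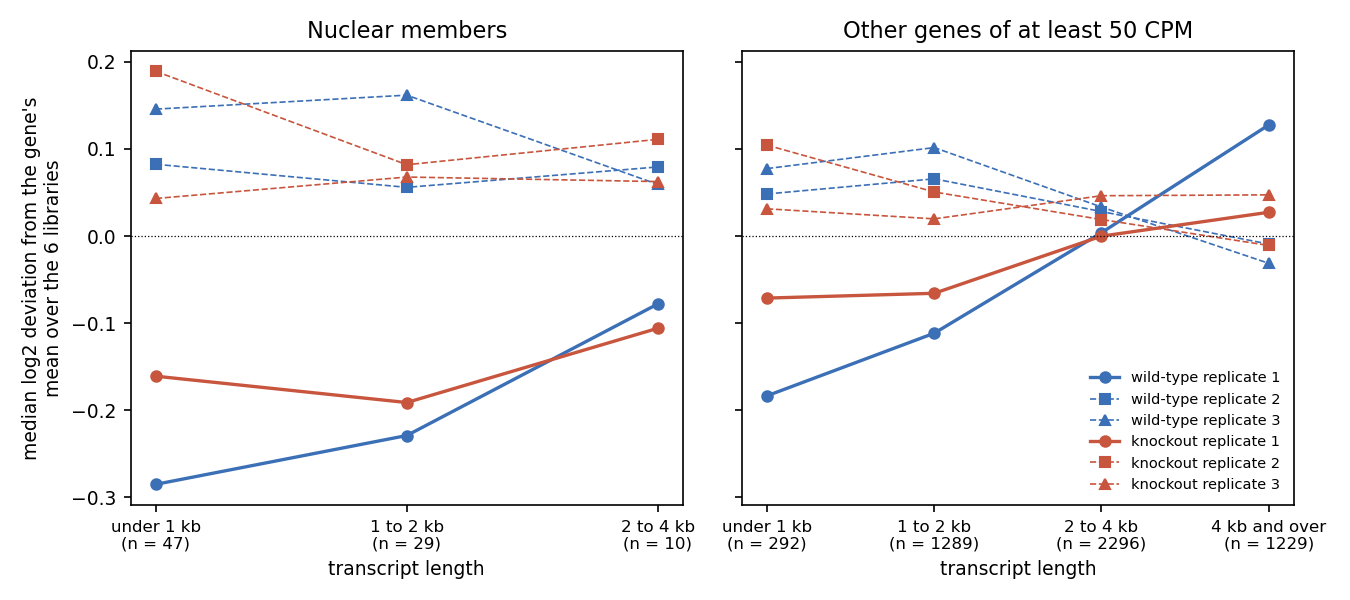
Median log2 deviation of each library from the gene's mean over the 6 libraries, by transcript length, for nuclear members (left; 10 members in the class of 2 to 4 kb, and the 2 members of 4 kb and over not drawn) and other genes of at least 50 CPM (right). The 2 replicate 1 libraries (solid lines) lie lowest among short transcripts, at -0.28 and -0.16 for members under 1 kb.

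Genes that serve the respiratory chain without matching the name rule were read from lists of electron carriers, assembly factors, mitochondrial DNA expression, transcriptional regulators and the TCA cycle. None of the 125 tested genes of these lists passed the adjusted threshold with edgeR. At an unadjusted p under 0.05 there were 7 of the 125, against 5.82% of all genes. Of these 3 were higher and 4 lower, against 3.47% and 2.35% of all genes. The 3 higher genes were electron carrier genes, of 20 tested: Coq8a and Coq10a of the ubiquinone pathway (log2 fold changes 0.56 and 0.81) and Dhodh, which feeds electrons to ubiquinone from pyrimidine synthesis (0.57). Their adjusted p was 0.841 each. Coq10a stood at 25.2, 16.9 and 18.8 CPM in WT and 34.2, 38.2 and 34.3 CPM in KO, without overlap. Of the 125 genes, 9 were higher and 7 lower without overlap, against 5.91% and 4.43% of all genes.

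The 4 lower genes at an unadjusted edgeR p under 0.05 came from 3 lists. Cox17 and Cox11, which deliver copper to complex IV, were 2 of 23 tested complex IV assembly genes, with log2 fold changes of -2.09 and -0.73. Cox17 stood at 11.8, 14.5 and 1.57 CPM in WT and 3.33, 3.34 and 0.226 CPM in KO, so the genotypes overlapped. Cox11 stood at 43.0, 52.0 and 44.6 CPM in WT and 33.8, 20.1 and 28.2 CPM in KO, without overlap. Polg, the mitochondrial DNA polymerase, was 1 of 24 mitochondrial DNA expression genes, with a log2 fold change of -0.85. Sucla2, a succinyl-CoA ligase subunit of the TCA cycle, stood at 196, 255 and 291 CPM in WT and 137, 146 and 199 CPM in KO. Its genotypes overlapped, and its log2 fold change was -0.62.

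Assembly factors of complex I, of complexes II and III and of complex V had 0 genes at an unadjusted p under 0.05, of 13, 10 and 4 tested with edgeR. Of 13 tested regulators, Yy1, whose letters were counted in the promoters above, had the smallest p. It stood at 36.4, 34.0 and 21.2 CPM in WT and 57.0, 50.9 and 44.6 CPM in KO, a log2 fold change of 0.74 (edgeR adjusted p = 0.857). The TCA cycle list had a median log2 fold change of -0.16 over 18 genes, against 0.01 over all genes and -0.015 over genes of at least 50 CPM. Its summed level was 4250, 4327 and 4703 CPM in WT and 3698, 4374 and 4347 CPM in KO. The genotypes overlapped, with KO replicate 1 the lowest library.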

How the data were processed

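The authors deposited raw counts per gene, 1 column per library; genotypes and replicate numbers came from the labels. HTSeq 1.99.2, HISAT2 2.2.1, Trimmomatic 0.39, DESeq2 1.38.3, Picard 2.26.1 and the build mm39 are named without roles, per the submitters' processing notes. Not given in the sources used here were the annotation release, the strand setting and the handling of reads with several positions. The amplification adds no molecular identifiers that the sources name, so counts are not independent molecules, and the floor of 3 counts covers counting error only. Of the nuclear members, 29 of 90 have exons that overlap a gene on the opposite strand, so reads could have been exchanged there.

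Identifiers were matched to symbols through GENCODE and RefSeq tables of GRCm38, another build than the counts, which was used only for names, lengths, transcripts, gene order and promoters (94.1% of identifiers had a symbol). The name or coding status of 4 members rests on RefSeq alone. Older symbols are used (Atp5a1, Atp5g1), and a transcript shared a window where 50 bases matched exactly, on either strand, a transcript of another gene. Any window was shared in 49 nuclear members. Over 50% of windows were shared in 3 of them: Ndufb4c (100%), Atp5l (84.8%) and Atp5o (50.3%). Levels per kilobase divide by the merged exon length of a gene's annotated transcripts. Transcript lengths are those of the longest coding transcript.

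The test was edgeR 4.0.16 (R 4.3.3) with filterByExpr, TMM factors, genotype as the only term and the robust quasi-likelihood fit with legacy off. P-values were adjusted by Benjamini-Hochberg over 14592 genes at 0.05, and SEs come from the F statistic. The common biological coefficient of variation was 75.1%. The fit was tested first on simulated data with large changes and a capped spread between libraries. Its sensitivity at the full spread of these data was not tested. P-values measure the spread between 3 mice a genotype; in such bulk libraries fewer cells and less RNA per cell cannot be told apart.

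The members and lists were chosen with earlier results of these data known. Named are Dcaf8, mitochondrially encoded members, per complex the 4 nuclear members with the smallest p and the 2 highest per kilobase, tissue isoforms, members without overlap, and at most 3 genes per other list. Alternatives were each library left out, the replicate block, the legacy fit, DESeq2 1.42.0, limma-voom (limma 3.58.1, sample weights), upper-quartile and RLE factors, a filter of 5 CPM in 3 libraries or none, and a table without the 20 most abundant and the mitochondrially encoded genes. Leaving out both replicate 1 libraries was added after seeing the data.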

Additional observations from a re-analysis of the deposited data

How the results depend on the processing

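With DESeq2, 153 genes were called, Dcaf8 among them (log2 fold change -2.32, adjusted p = 1.89e-09), and 0 members. Members at an unadjusted p under 0.05 numbered 0 with edgeR, 3 with DESeq2, 1 with limma-voom (Ndufv3), 1 with the legacy fit (Ndufv3) and 1 without both replicate 1 libraries (Ndufaf6). With single libraries left out they numbered 0 to 3; the 3 were Ndufb10, Ndufaf6 and Sdhd, without WT replicate 1. Of 641 log2 fold changes of 41 named members, 605 kept their direction and 36 turned, with an adjusted p of at least 0.30 throughout. With limma-voom mt-Nd5 turned to -0.0070, Ndufa7 to 0.0073 and Uqcrc1 to 0.014. Without both replicate 1 libraries mt-Nd6 turned to -0.15, mt-Nd5 to -0.13, Uqcrc2 to -0.0054 and Ndufa4 to 0.017. With single libraries left out, log2 fold changes crossed 0 in 14 of the 41 named members: mt-Nd6 from -0.027 to 0.28, mt-Nd5 from -0.093 to 0.13, mt-Co1 from -0.11 to 0.026, Ndufa7 from -0.21 to 0.10, Sdhc from -0.028 to 0.16, Uqcrb from -0.15 to 0.027, Uqcrc2 from -0.053 to 0.16, Uqcr10 from -0.068 to 0.21, Uqcrc1 from -0.15 to 0.13, Cox7a2l from -0.19 to 0.0038, Cox4i1 from -0.010 to 0.17, Cox7a2 from -0.098 to 0.17, Ndufa4 from -0.12 to 0.11 and Atp5g1 from -0.24 to 0.12. The cause of these turns was not tested. Median log2 fold changes also crossed 0 there: from -0.08 to 0.07 over all members, -0.12 to 0.05 in complex I, -0.15 to 0.09 in complex III and -0.02 to 0.17 in complex IV, but not in complexes II and V or the mitochondrially encoded members.

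The labels state no pairing of mice by replicate number, and a pairing was not tested. Same-numbered libraries deviated together with correlations of 0.06, -0.04 and 0.01 over 14592 genes. With the replicate number as a block, 0 genes and 0 members were called, and Atp5g1 turned to 0.0083. The fit without mitochondrially encoded genes gives no value for them, and the strict filter none for 4 named genes.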
